A study of Arabidopsis thaliana with 36 samples.

Results

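Transcript levels of 10 genes for epidermal identity and the cuticle were followed in Arabidopsis seeds with and without the histone variant H3.3, from the dry seed to 24 h in germination conditions. The genes are ATML1, PDF2, PDF1, LTP1, LTP2, KCS1, CER6, FDH, CER1 and LACS2, picked by locus identifier for their known roles, out of 27655 genes in the table. Whole seeds of the wild type Columbia (Col) and of h3.3ko were compared by RNA-seq at 6 time points with 3 libraries per group, which gave 36 libraries in 12 groups. In h3.3ko all 3 genes for H3.3 are mutated: htr4 and htr5 by CRISPR-Cas9 and htr8 by a T-DNA insertion. The parents of these seeds were h3.3ko plants heterozygous for a pHTR5::HTR5 transgene linked to an mCherry seed marker, and seeds lacking the marker were picked at the mature stage, so the mother plants carried a source of H3.3. No such transgene or sorting step is stated for Col. Seeds of both genotypes were stored for 3 months after harvest. They were taken as mature seeds (MS), after 12, 24 or 48 h of cold stratification (S12h, S24h, S48h), or after 12 or 24 h in germination conditions that followed the stratification (G12h, G24h). Per the study, Col but not h3.3ko had completed germination at G24h, so developmental stage and genotype cannot be told apart at that time.

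The epidermis is the outermost cell layer of the embryo and seedling, and it is set apart early in embryogenesis. ATML1 and PDF2 are closely related homeodomain transcription factors of the HD-ZIP IV class that act redundantly to specify this layer, and they bind a short element, the L1 box, found upstream of many genes of the layer. Epidermal cells build the cuticle, a polyester called cutin embedded in and covered by waxes, from fatty acids that are activated to CoA esters, lengthened in the endoplasmic reticulum, modified and exported to the wall. The embryo carries a cuticle in the dry seed, and the growing hypocotyl, cotyledons and root cap extend it after germination.

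The L1 box was looked for upstream of the 10 genes, because it is the element through which ATML1 and PDF2 are known to act. Both forms, TAAATGCA and TAAATGTA, were searched on both strands in the 1000 bases before the annotated gene start in TAIR10.1. Matches before ATML1, FDH, LTP2 and CER6 are given here, and of 27443 nuclear genes with a full window 15.8% had one. These 30-base stretches are printed in the reading direction of each gene, with the L1 box in capitals, since they are a feature that the choice of genes did not use.
ATML1: ttataacagtaTAAATGTAtaatgaggacc
FDH: aaaaattgtaaTAAATGCAaacataagatc
LTP2: taaaataaaaaTAAATGTAaataatatata
CER6: gggtataaacgTACATTTAatttacacgta
The match lay 54 bases before the start of FDH (chr2:11173314-11173343, minus strand). It lay 509 bases before ATML1 (chr4:11554519-11554548, plus strand) and 710 bases before LTP2 (chr2:16127455-16127484, plus strand). In CER6 it stood on the opposite strand, 684 bases upstream (chr1:25715690-25715719, minus strand gene), so the capitals there read as the reverse complement of TAAATGTA. TAAATGCA alone was found before 5.9% of all genes, and it was the form in FDH. A match is a string of letters, and binding was not measured here. These genes did not move as a group: at G24h, ATML1, FDH and CER6 were lower in h3.3ko and LTP2 was higher, as given below.

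All values are TPM, the transcript abundance of a gene within a library scaled to the same total in each, which the authors made from read counts divided by the gene span, introns included. Whole reads could be worked out from the TPM steps, and the libraries held 17.0 to 19.28 M reads. A count of 3 reads, used as the floor where no read was seen, is worth 0.245 to 0.370 TPM when a gene spans 1 kb, and it covers counting error only. To be called, a gene needed a log2 fold change over 1 in size and an adjusted p under 0.05, both from a single limma model of log2(TPM + 1) on all 12 groups. These log2 fold changes understate the change of genes with low TPM, and folds given as such are ratios of mean TPM. In mature seeds the mean of HTR8 was 137 TPM for Col against 2.02 TPM for h3.3ko, that of HTR4 134 against 26.4 TPM and that of HTR5 290.0 against 298 TPM, so at MS the label shows in HTR8 and HTR4 only; HTR5, with reads of the edited gene still counted, was lower in h3.3ko from S12h on except at S48h (-0.86, not called). Since whole seeds were used, fewer cells of a type and less RNA per cell cannot be told apart.

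The seed is a mixture, and summed levels of some tissue markers differed between genotypes. The 6 endosperm markers summed to 8383 to 10583 TPM over the Col MS libraries and to 1448 to 1991 TPM over those of h3.3ko, and at G24h to 1727 to 2399 against 317 to 355 TPM. At MS most of this was EPR1, an extensin-like gene of the endosperm, with a mean of 9463 TPM in Col against 1665 TPM in h3.3ko. Of the 5 endosperm markers tested, 2 were called higher in h3.3ko at MS and 1, EPR1, lower (median log2 fold change 0.35). At G24h none were higher and 3 were lower. Among all genes 8.55% were called higher and 10.6% lower at MS, and 9.63% and 29.4% at G24h. The 7 seed coat markers summed to 3.68 to 5.75 TPM at MS in the 2 genotypes, with TT2 at 0 in all groups, and to 57.4 to 67.3 TPM in Col against 6.54 to 6.86 TPM in h3.3ko at G24h. Of these 7 markers 3 were tested, and 4 had 0 TPM in all Col MS libraries and 4 in all h3.3ko G24h libraries. In Col their mean sum rose from 4.06 TPM at MS to 63.5 TPM at G24h. Whether the gap at G24h reflects seed coat content was not tested. Transcripts of 9 seed storage proteins made up 10.2% of all TPM in dry Col seeds and 34.1% in dry h3.3ko seeds. At G24h their share was 0.032% in Col and 17.2% in h3.3ko. The part of these differences in the levels below was not tested, except that leaving the storage genes out and rescaling was one of the alternatives.

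**Figure D1:**
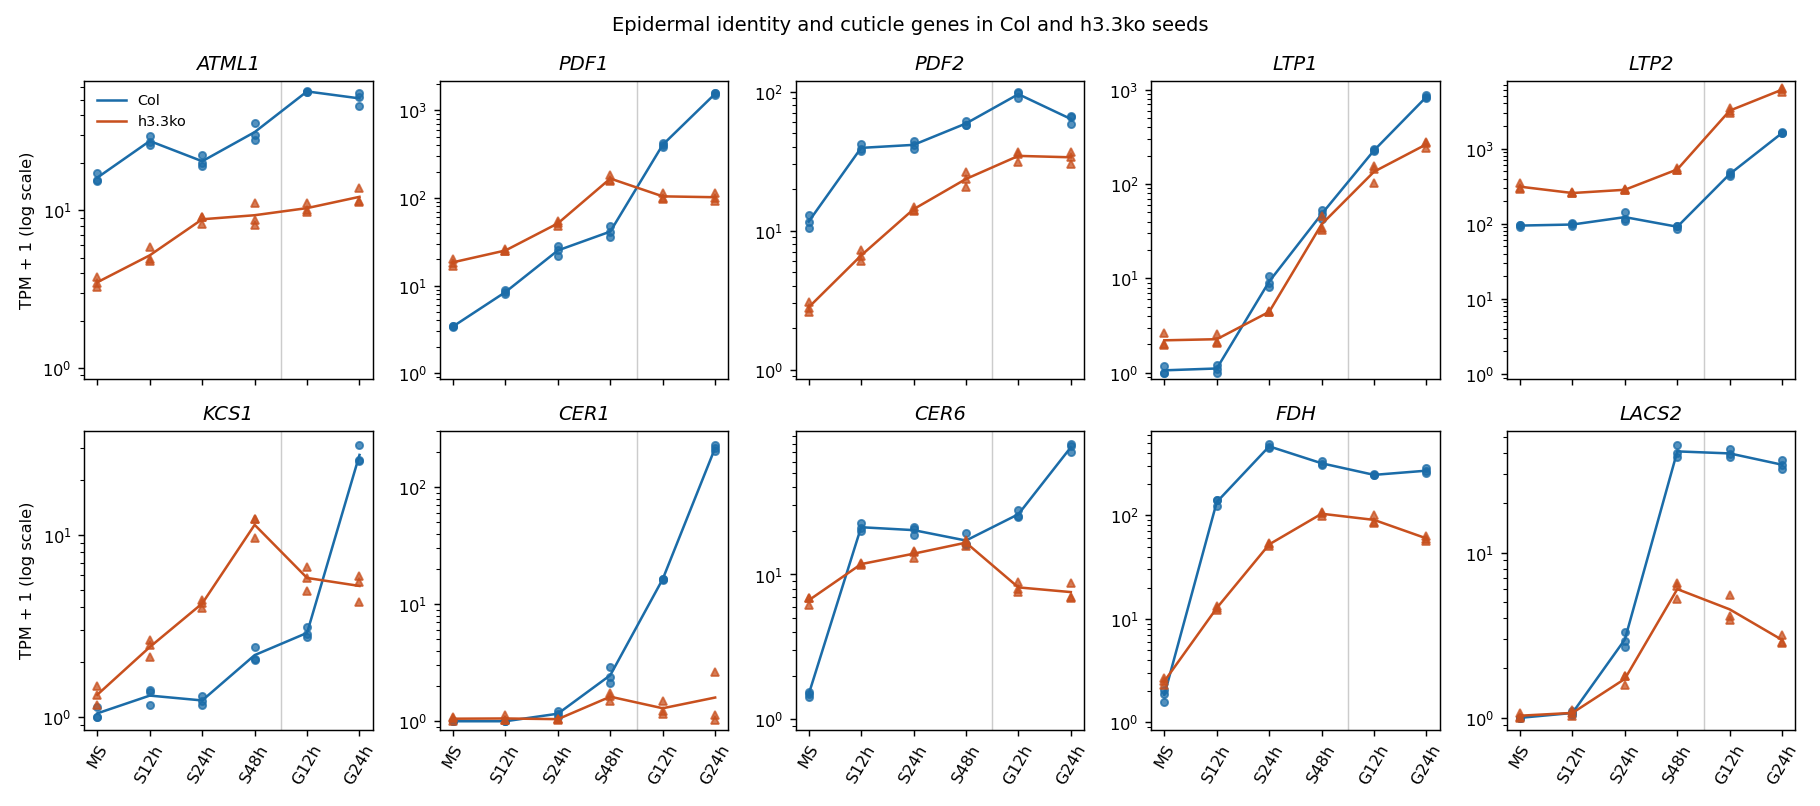
TPM + 1 on a log axis for each of the 10 genes at the 6 time points (circles, Col libraries; triangles, h3.3ko libraries; lines, means of 3 libraries; the grey line separates stratification from germination). ATML1 and PDF2 stay below Col in every h3.3ko group and LTP2 above it, while PDF1 crosses between S48h (40.3 against 165 TPM) and G12h (403 against 103 TPM).

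Before germination the 10 genes were split between higher and lower in h3.3ko, and in germination conditions most of them were lower. At MS, 4 were called higher and 2 lower, where 19.2% of the 19052 genes tested were called in either direction, 8.55% higher and 10.6% lower. At S12h, 3 were higher and 3 lower (25.5% of all genes called), at S24h 3 and 4 (32.3%), and at S48h 3 and 4 (35.6%). At G12h, 1 was higher and 7 were lower, where 10.2% and 17.6% of all genes were called so (27.7% in all). At G24h, 1 was higher and 8 were lower, beside 9.63% and 29.4% of all genes (39.0% in all). The median log2 fold change of the 10 genes went from 0.39 at MS to -2.29 at G24h, where the medians over all genes were 0.00 and -0.39. The libraries of the genotypes did not overlap for 8 of the 10 genes at MS (68.7% of all genes). During stratification this held for 9 genes after 12 h (77.7% of all), 10 after 24 h (79.3%) and 8 after 48 h (81.7%), and in germination conditions for all 10 (80.0% of all genes after 12 h and 84.0% after 24 h). The counts at G24h were the same under all 9 other settings run except the filter at a mean of 5 TPM, which left KCS1 out. The split over all genes did depend on the scaling: at G24h 24.7% of all calls were higher in h3.3ko, 36.3% after median-of-ratios scaling and 49.3% after quantile normalization. At MS these shares were 44.5%, 55.1% and 51.8%, and leaving out the storage genes gave 72.4%.

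**Figure D2:**
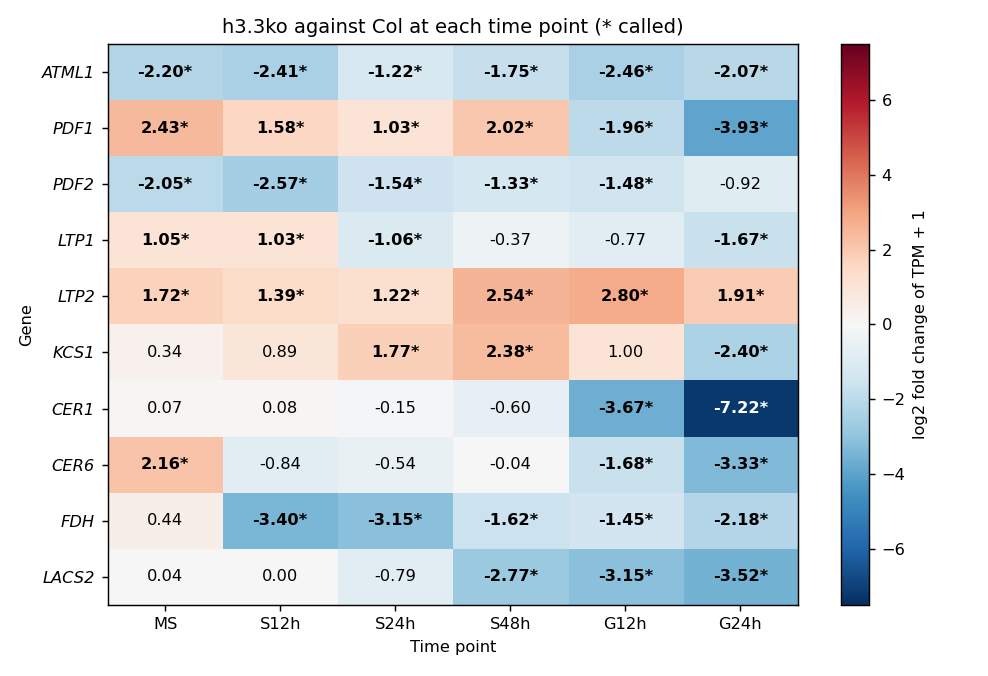
Log2 fold change of TPM + 1 in h3.3ko against Col for each gene (rows) and time point (columns), from the limma fit; bold values with an asterisk were called. ATML1 is lower and LTP2 higher at all 6 time points, and 8 of 10 genes are called lower at G24h, with CER1 at -7.22.

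The identity factors ATML1 and PDF2 were lower in h3.3ko already in the dry seed. ATML1 (AT4G21750, chr4:11555039-11560771, plus strand, up to 12 exons) was at 14.4, 16.3 and 14.6 TPM in the Col MS libraries and at 2.27, 2.79 and 2.44 TPM in those of h3.3ko. The groups were far apart, 6.03-fold or -2.20 ± 0.107 on the log2 scale (SE; adjusted p from limma 9.04e-18). PDF2 (AT4G04890, chr4:2476390-2482447, minus strand, 12 exons) was at 10.5, 11.9 and 9.44 TPM in Col MS and at 2.08, 1.75 and 1.59 TPM in h3.3ko MS, a 5.87-fold difference (-2.05 ± 0.091, adjusted p 1.15e-18). Both gaps rested on more than 100 reads in every library.

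ATML1 stayed lower in h3.3ko at all 6 time points. It went from 15.1 ± 1.03 TPM (SD, n = 3) at MS to 55.5 ± 0.444 at G12h in Col, and from 2.50 ± 0.266 to 9.32 ± 0.760 TPM in h3.3ko, where the highest mean was 11.2 ± 1.38 TPM at G24h. The highest h3.3ko library at any time, 12.8 TPM at G24h, was below the lowest Col library at any time, 14.4 TPM at MS. The difference was smallest at S24h, 2.50-fold (-1.22 ± 0.107, adjusted p 7.84e-12), and there it came to -0.98, just under the fold threshold, when storage genes were left out. PDF2 was lower too, but its gap narrowed from 6.83-fold at S12h (-2.57) to 1.91-fold at G24h, where 57.9, 65.4 and 64.5 TPM in Col stood against 33.0, 35.8 and 29.4 TPM in h3.3ko. The G24h libraries did not overlap, yet the fold change of -0.92 ± 0.091 (adjusted p 1.09e-10) was under the threshold of 1. PDF2 rose in h3.3ko from MS to S48h by 3.06 ± 0.091 on the log2 scale against 2.35 ± 0.091 in Col, and the difference of these changes, 0.71, was not called. The longest annotated transcripts of ATML1 and PDF2 aligned over 2393 bases at 85% identity, but their longest shared run was 28 bases.

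PDF1, which codes for a proline-rich wall protein made in the outer layer, switched sides. In the dry seed PDF1 (AT2G42840, chr2:17826071-17827648, minus strand, 3 exons) was at 2.44, 2.43 and 2.38 TPM in Col and at 15.9, 17.3 and 19.1 TPM in h3.3ko, so every h3.3ko library was above Col, 7.21-fold on average (2.43 ± 0.091, adjusted p 1.52e-20). It was still higher at S48h, 165 ± 14.3 against 40.3 ± 5.79 TPM (2.02 ± 0.091). At S24h the call was narrow, with a log2 fold change of 1.03 that fell to 0.93 without Col replicate 2 and to 0.99 without h3.3ko replicate 1. In germination conditions the order turned: Col was at 399, 385 and 426 TPM at G12h and h3.3ko at 97.4, 100.1 and 112 TPM (-1.96 ± 0.091). At G24h Col reached 1476, 1568 and 1584 TPM and h3.3ko stood at 113, 92.2 and 97.7 TPM, a 15.3-fold difference (-3.93 ± 0.091, adjusted p 1.05e-26). The change from S48h to G24h was thus 5.23 ± 0.091 in Col and -0.71 ± 0.091 in h3.3ko on the log2 scale, and the interaction, -5.94 ± 0.129, had an adjusted p of 1.43e-26.

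LTP1 and LTP2 code for small secreted lipid transfer proteins of the epidermal wall, and they lie side by side on chromosome 2 on the same strand, with 890 bases between LTP2 (AT2G38530, chr2:16128176-16129399) and LTP1 (AT2G38540, chr2:16130290-16131240). In h3.3ko against Col the neighbours differed in opposite directions at G24h, while from S48h to G24h both rose in both genotypes. Their transcripts aligned over 798 bases at 86.1% identity, with a longest shared run of 40 bases, and how the authors' counting dealt with reads that fit both is not given in the sources used here.

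LTP2 was higher in h3.3ko at all 6 time points. It was at 89.8, 94.6 and 96.7 TPM in Col MS and at 296, 294 and 343 TPM in h3.3ko MS (1.72 ± 0.078, adjusted p 2.01e-18). In Col it stayed between means of 90.4 and 122 TPM up to S48h and then reached 459 ± 29.3 TPM at G12h and 1617 ± 33.0 TPM at G24h. In h3.3ko it went from 528 ± 15.5 TPM at S48h to 3205 ± 257 and 6101 ± 371 TPM. LTP2 had the highest level per gene span of the 10 genes at G24h, and its h3.3ko libraries at 6219, 5685 and 6399 TPM did not overlap with Col at 1596, 1599.6 and 1655 TPM (3.77-fold, 1.91 ± 0.078, adjusted p 3.06e-20). The largest gap was at G12h, 6.99-fold (2.80 ± 0.078). From S48h to G24h LTP2 rose in both genotypes, by 4.15 in Col and 3.53 in h3.3ko on the log2 scale, and the interaction of -0.62 was not called, although quantile normalization gave -1.38, which was.

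LTP1 was close to zero in the dry Col seed, with 0, 2 and 0 reads, and had 10, 11 and 18 reads in h3.3ko (0.966 to 1.61 TPM). That difference was called (1.05 ± 0.136, adjusted p 4.42e-08), as was the one at S12h (1.03), but the call at MS was lost without h3.3ko replicate 3 (0.92), and that at S12h without replicate 3 of either genotype (0.95 and 0.92) and with quantile normalization (0.97). At S24h LTP1 was lower in h3.3ko, with 3.39, 3.37 and 3.52 TPM against 8.02, 9.66 and 7.13 TPM, and this call (-1.06) was lost without Col replicate 2 (-0.95), by median-of-ratios scaling (-0.96) and by leaving out the storage genes (-0.85). At S48h the libraries overlapped, 31.4 to 45.0 against 41.7 to 51.9 TPM, and at G12h, at 102 to 156 against 221 to 232 TPM, they did not, but the difference was not called (-0.77). At G24h Col was at 880, 833 and 809 TPM and h3.3ko at 272, 242 and 276 TPM, so LTP1 was 3.19-fold lower in h3.3ko (-1.67 ± 0.136, adjusted p 9.42e-13) in the same libraries in which its neighbour was 3.77-fold higher.

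KCS1, CER6 and FDH code for 3-ketoacyl-CoA synthases, the enzymes that set the chain length in fatty acid elongation. CER6 (also KCS6) supplies most wax precursors of the shoot, and loss of FDH (also KCS10) makes organs fuse. FDH (AT2G26250, chr2:11170416-11173278, minus strand, 3 exons) changed early in Col. It was at 0.839 ± 0.252 TPM in Col MS and 1.49 ± 0.191 TPM in h3.3ko MS, a difference that was not called (0.44). After 12 h of stratification it was at 139, 139 and 123 TPM in Col but at 11.2, 12.2 and 11.8 TPM in h3.3ko, 11.4-fold lower (-3.40 ± 0.078, adjusted p 7.34e-26). The highest mean came at S24h in Col, 464 ± 22.1 TPM, and at S48h in h3.3ko, 103 ± 4.77 TPM. FDH remained lower in h3.3ko at each later time, by 9.02-fold (S24h), 3.10-fold (S48h), 2.75-fold (G12h) and 4.58-fold (G24h).

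CER6 (AT1G68530, chr1:25712414-25715024, minus strand, up to 2 exons) began on the other side. The Col MS libraries held 0.426, 0.535 and 0.500 TPM (13 to 16 reads) and those of h3.3ko 5.84, 5.14 and 5.92 TPM, 11.6-fold higher (2.16 ± 0.088, adjusted p 1.20e-19). At S48h the genotypes overlapped, 15.0, 15.2 and 18.4 TPM against 16.3, 14.8 and 15.7 TPM. By G24h Col had reached 69.1, 75.8 and 78.9 TPM while h3.3ko was at 7.74, 6.04 and 5.89 TPM, 11.4-fold lower (-3.33 ± 0.088, adjusted p 3.17e-25). From S48h to G24h CER6 rose by 2.14 in Col and fell by 1.14 in h3.3ko on the log2 scale. Median-of-ratios scaling took the fall in h3.3ko below the threshold (-0.98), and the interaction of -3.28 ± 0.124 was called under each of the settings run.

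KCS1 (AT1G01120, chr1:57164-59215, minus strand, 1 exon) was low, and higher in h3.3ko at S24h and S48h. At S48h it was at 1.04, 1.07 and 1.43 TPM in Col (18 to 24 reads) and at 11.3, 8.63 and 11.2 TPM in h3.3ko, 8.78-fold higher (2.38 ± 0.128, adjusted p 4.52e-17). At G24h the order had turned, with 24.7, 24.5 and 30.3 TPM in Col and 4.95, 4.49 and 3.26 TPM in h3.3ko, 6.26-fold lower (-2.40 ± 0.128). At G12h, in between, KCS1 was 2.54-fold higher in h3.3ko with a log2 fold change of 1.0 that did not pass the threshold, but passed it without replicate 3 of either genotype (1.05 and 1.11) and under 5 other settings (1.01 to 1.46). Its interaction from MS to S48h (2.04) was -0.02 with voom on the recovered reads, where Col MS holds 0 to 3 reads.

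CER1 and LACS2 stand at the ends of the pathway. CER1 forms the alkanes of the wax, together with CER3, and in Col its level rose mainly in germination conditions. CER1 (AT1G02205, chr1:418416-422579, plus strand, up to 10 exons) had 0 reads in all 6 Col libraries at MS and S12h, which allows up to 0.063 TPM per MS library at a floor of 3 reads. It was at 1.14, 1.38 and 1.90 TPM at S48h, at 15.5, 15.1 and 15.5 TPM at G12h and at 202, 216 and 228 TPM at G24h. At S48h, where h3.3ko held 0.751, 0.633 and 0.481 TPM, the difference was not called (-0.60) but was with a pseudocount of 0.1 (-1.11) and with voom (-1.22). In h3.3ko CER1 stayed under 1 TPM in every library except replicate 1 at G24h. At G12h the h3.3ko libraries held 6, 9 and 19 reads against 525 to 533 reads in Col, 52.9-fold lower (-3.67 ± 0.183, adjusted p 8.47e-18). At G24h they held 1.64, 0.026 and 0.122 TPM (65, 1 and 5 reads), and the difference from Col, 363-fold in mean TPM, was 2930-fold without h3.3ko replicate 1 and 245-fold and 260-fold without replicates 2 and 3. The log2 fold change was -7.22 ± 0.183 (adjusted p 1.07e-25) and lay between -7.66 and -6.98 with each library left out.

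The h3.3ko G24h library that held most CER1 reads also led for other cuticle genes. Of 42 other epidermal and cuticle genes called lower at G24h, 26 had their highest h3.3ko value in replicate 1, 14 in replicate 2 and 2 in replicate 3, where the shares over all tested genes were 21.7%, 46.7% and 30.3%. In 6 of the 42 (14.3%) replicate 1 was at least 2-fold above the next library, against 3.5% of all tested genes, and in the rest of the 26 the lead was smaller. All 6 were low, at 0.036 to 1.28 TPM in replicate 1, where a lead of this size can rest on a few reads. The 42 were called for being low in h3.3ko at G24h, and no share among equally low genes was taken. Among the 6, LTL1 was at 0.953 TPM in replicate 1 and at 0 in the other 2 libraries, and KCS19 at 0.8, 0.102 and 0 TPM. These genes were picked after their values had been seen, and a difference in stage among the seeds of that library was not tested. Without it, the count of members called at G24h stayed at 1 higher and 8 lower.

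LACS2 codes for the acyl-CoA synthetase that activates fatty acids for cutin. LACS2 (AT1G49430, chr1:18290942-18295905, plus strand, up to 19 exons) had 0 reads in the 3 Col MS libraries and 0, 4 and 1 reads in h3.3ko. In Col it reached 36.7, 39.2 and 43.9 TPM at S48h, at least 757-fold above the floor of 3 reads at MS, and stayed at 38.8 ± 2.29 and 33.0 ± 2.24 TPM at G12h and G24h. In h3.3ko it reached 5.27, 4.20 and 5.55 TPM at S48h and stood at 1.84, 1.86 and 2.18 TPM at G24h. LACS2 was 7.97-fold lower in h3.3ko at S48h (-2.77 ± 0.107, adjusted p 8.60e-21), 11-fold lower after 12 h of germination and 16.8-fold lower after 24 h (-3.52 ± 0.107), with no overlap between libraries. At S24h the difference, 1.98 against 0.721 TPM, was below the threshold (-0.79), but a pseudocount of 0.1 gave -1.34, quantile normalization -1.07 and voom -1.35, all past it.

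Within each genotype most of these genes rose during stratification, by amounts that differed between genotypes for some of them. From MS to S48h, 8 of the 10 genes rose in Col and 8 rose in h3.3ko, with none lower, but 48.2% and 51.0% of all genes were called higher, and 10.3% and 3.21% lower (58.5% and 54.2% called in either direction), and the medians over all genes were 0.92 and 1.03 on the log2 scale. The members' medians were 2.94 and 2.80, and libraries did not overlap for 9 of them in Col and 10 in h3.3ko (86.7% and 84.9% of all genes). PDF2 in Col (2.35) and KCS1 in Col (1.06) were no longer called with median-of-ratios scaling (0.98 and 0.83), and KCS1 also without Col replicate 3 at S48h (0.98). This shift of all genes depended on the scaling: 82.3% of calls in Col and 94.1% in h3.3ko were higher, and after median-of-ratios scaling 52.6% and 47.8%. With only the storage genes left out, these shares were 80% and 88.5%. FDH (7.45 in Col, 5.38 in h3.3ko), LTP1 (5.50 and 4.08) and LACS2 (5.35 and 2.54) rose well beyond the shift. CER6 rose by 3.52 in Col and by 1.32 in h3.3ko, and the latter was -0.09, -0.08 and -0.11 with median-of-ratios scaling, quantile normalization and voom. ATML1, called higher in h3.3ko (1.4), was likewise at 0.13, -0.01 and 0.14 there, and in Col its 0.95 was at -0.43, -0.20 and -0.46. LTP2, not called in Col (-0.05), fell in Col with those settings (-1.48, -1.26 and -1.51). The interaction from MS to S48h was called for 5 of the 10 genes, 1 higher (KCS1) and 4 lower (LTP1, CER6, FDH and LACS2), where 36.4% of all genes were called, 19.5% higher and 16.9% lower.

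From S48h to G24h, 6 of the 10 genes rose in Col and none fell, beside 29.1% of all genes higher and 13.4% lower (42.5% called, median 0.21). Libraries did not overlap for 9 of the 10 in Col and 9 in h3.3ko (85.7% and 73.6% of all genes). CER1 rose by 6.46 on the log2 scale, PDF1 by 5.23, LTP2 by 4.15, LTP1 by 4.13, KCS1 by 3.66 and CER6 by 2.14. In h3.3ko 2 rose, LTP2 by 3.53 and LTP1 by 2.83, and 3 fell, KCS1 by 1.12, CER6 by 1.14 and LACS2 by 1.02, where 8.76% of all genes were higher and 12.4% lower (21.1% called). All 3 falls were just under the threshold with median-of-ratios scaling (-0.96, -0.98 and -0.86), which left 2 of the 10 genes called, and the fall of LACS2 was also lost without 4 single libraries, replicates 1 and 3 at S48h and replicates 1 and 2 at G24h (-0.99 to -0.95). The fall of KCS1 was lost without replicate 3 at G24h (-0.98). For CER1 in h3.3ko the log2 fold change was -0.16 ± 0.183 (adjusted p 0.44), and voom on the recovered reads called it lower (-1.47). The interaction was called for 5 of the 10 genes, all lower (PDF1, LTP1, KCS1, CER1 and CER6), where 39.4% of all genes were called, 9.76% higher and 29.7% lower. The call for LTP1 was lost with median-of-ratios scaling (-1.0) and voom (-0.99).

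**Figure D3:**
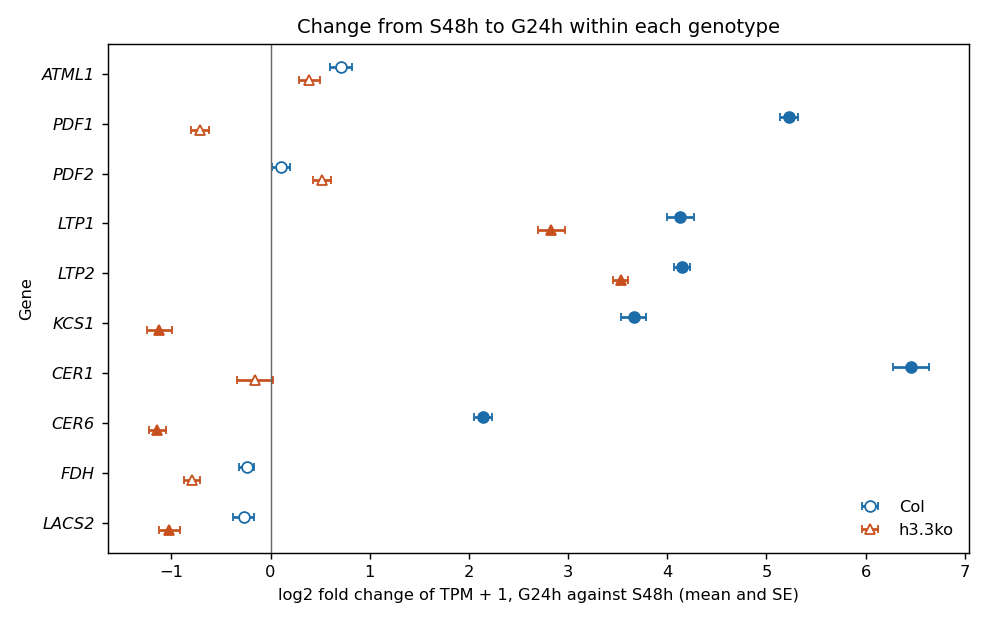
Change from S48h to G24h on the log2(TPM + 1) scale for each gene within Col (circles) and h3.3ko (triangles), with the SE of the limma fit; filled symbols were called. In Col CER1 rises by 6.46 and PDF1 by 5.23, and in h3.3ko these stand at -0.16 and -0.71, while LTP1 and LTP2 rise in both.

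Since h3.3ko had not germinated at G24h, its G24h libraries were also set beside Col at G12h. Against Col at G12h, h3.3ko at G24h had 7 of the 10 genes lower and 1 higher, where 31.7% of all genes were called, 22.6% lower and 9.05% higher, and libraries did not overlap for any of the 10 (80.9% of all genes). LACS2 was 19.8-fold lower, CER1 25.9-fold, ATML1 4.97-fold, FDH 4.17-fold, PDF1 4.0-fold, CER6 3.82-fold and PDF2 2.90-fold. The CER1 fold was 209 without h3.3ko replicate 1 and 17.5 to 26.1 without any other library. LTP2 was 13.3-fold higher. LTP1 (263 against 227 TPM, log2 fold change 0.21, adjusted p 0.149) and KCS1 (4.23 against 1.89 TPM, 0.85) were not called, though KCS1 was in 5 other settings (1.01 to 1.47). This comparison shares libraries with those above.

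Levels can be compared between genes once the reads are divided by exon length. In Col at G24h, LTP2 (789 ± 9.96 reads per kb of exon per M reads) and PDF1 (772 ± 19.8) stood at the top, and their ranges of mean ± SD overlapped. LTP1 (426 ± 23.8), FDH (152 ± 6.79) and CER1 (111 ± 5.31) followed, then PDF2 (46.9 ± 2.59), CER6 (33.1 ± 1.82), ATML1 (28.5 ± 2.50), LACS2 (25.3 ± 1.41) and KCS1 (11.8 ± 1.34), of which only ATML1 and LACS2 overlapped in mean ± SD. In h3.3ko at G24h LTP2 was at 3451 ± 271 and LTP1 at 155 ± 13.5, PDF1 followed at 58.5 ± 6.67, and CER1 was last at 0.356 ± 0.540. PDF2 (28.3 ± 2.30) stood above ATML1 (7.35 ± 0.770) in h3.3ko as it did in Col.

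Genes of the same pathways, taken from lists set up for this tissue with the 10 genes left out, were mostly lower in h3.3ko at G24h as well. Of 89 such genes, 61 passed the filter. At MS 6 were higher and 6 lower in h3.3ko (19.7% of those tested), and at S48h 8 were higher and 13 lower (34.4%), close to the 19.2% and 35.6% called among all genes. In germination conditions 5 were higher and 30 lower after 12 h, then 3 and 42 after 24 h. Those lower were 49.2% and 68.9% of the genes tested, beside 17.6% and 29.4% of all genes. The medians at these 4 times were 0.01, -0.02, -0.91 and -1.75. The count lower at G24h lay between 33 with quantile normalization and 44 with a pseudocount of 0.1, and was 27 among the 38 genes that averaged 5 TPM or more. Cutin synthesis genes had 9 of 10 lower at G24h and none higher, among them HTH, whose loss fuses organs (119.5 against 4.16 TPM), LTL1 (71.3 against 0.318 TPM) and CYP86A4, a fatty acid hydroxylase (56.9 against 2.0 TPM). All 5 genes of the elongase complex and its partners were lower at G24h, CER10, the enoyl-CoA reductase, by 2.0 on the log2 scale, as were all 3 wax synthesis genes tested. Of 8 suberin synthesis genes 1 passed the filter, and it was not called at G24h (-0.22).

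Among the other 3-ketoacyl-CoA synthases, 10 of 13 were lower at G24h and 1, KCS12, named after its values were seen, was higher (3.75 against 0.689 TPM). KCS5 was lower at all 6 time points (59.2 ± 3.5 against 0.382 ± 0.0843 TPM at S48h), KCS16 at 5 and KCS8 at 4. LACS1, which acts with LACS2 in wax and cutin synthesis, was lower at all 6 (30.5 ± 5.57 against 4.23 ± 0.442 TPM at S48h). Of the exporters, 3 of 5 were lower at G24h, with ABCG32 at 18.2 against 3.55 TPM and the lipid-anchored LTPG2 at 170.1 against 12.2 TPM. Among all genes, 29.4% were called lower and 9.63% higher at G24h, and lists of this size are small. The receptor kinases GSO1 and GSO2, needed for an intact embryonic cuticle, were lower at 5 and 4 of the 6 times, GSO2 with 85.7 ± 6.04 against 11.5 ± 1.43 TPM at S48h.

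Not every list went down. Of 6 other lipid transfer proteins, 3 were lower and 1 was higher at G24h. LTP5 was higher in h3.3ko from MS to S48h (120 against 6.72 TPM at S48h) and not called at G24h (86.4 against 103 TPM), LTP3 was higher from S24h to G24h (267 against 112 TPM at G24h), and LTP7 was lower from S48h on. Among 6 cuticle regulators, MYB96, an activator of wax genes, was higher from S12h to G12h (14.2 ± 1.56 against 0.225 ± 0.0590 TPM at S48h). DEWAX, a repressor of wax genes, was higher at 5 times (143 ± 9.31 against 10.1 ± 1.85 TPM at G24h), and MYB30, an activator of very-long-chain fatty acid genes, was lower at 4. Of the other HD-ZIP IV factors 4 of 8 tested were lower at G24h and none higher. The stomatal lineage, which arises from the epidermis, had 6 of 7 markers lower at G12h and G24h, SPCH at 11.6 against 1.80 TPM and TMM at 32.8 against 2.34 TPM at G12h, and MUTE lower from S48h on. Of the markers of other tissues, 3 of 5 for the endosperm, 2 of 3 for the seed coat, 2 of 6 for vascular and ground tissue and 1 of 4 for meristems were lower at G24h, with none higher, where 29.4% of all genes were lower; the last 2 shares are near that background. PLT1 was lower at 5 of the 6 times and SHR and MAN6 at 3, while PRX36 was higher at 3. The part of these tissues in the cuticle gene levels was not tested.

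**Figure D4:**
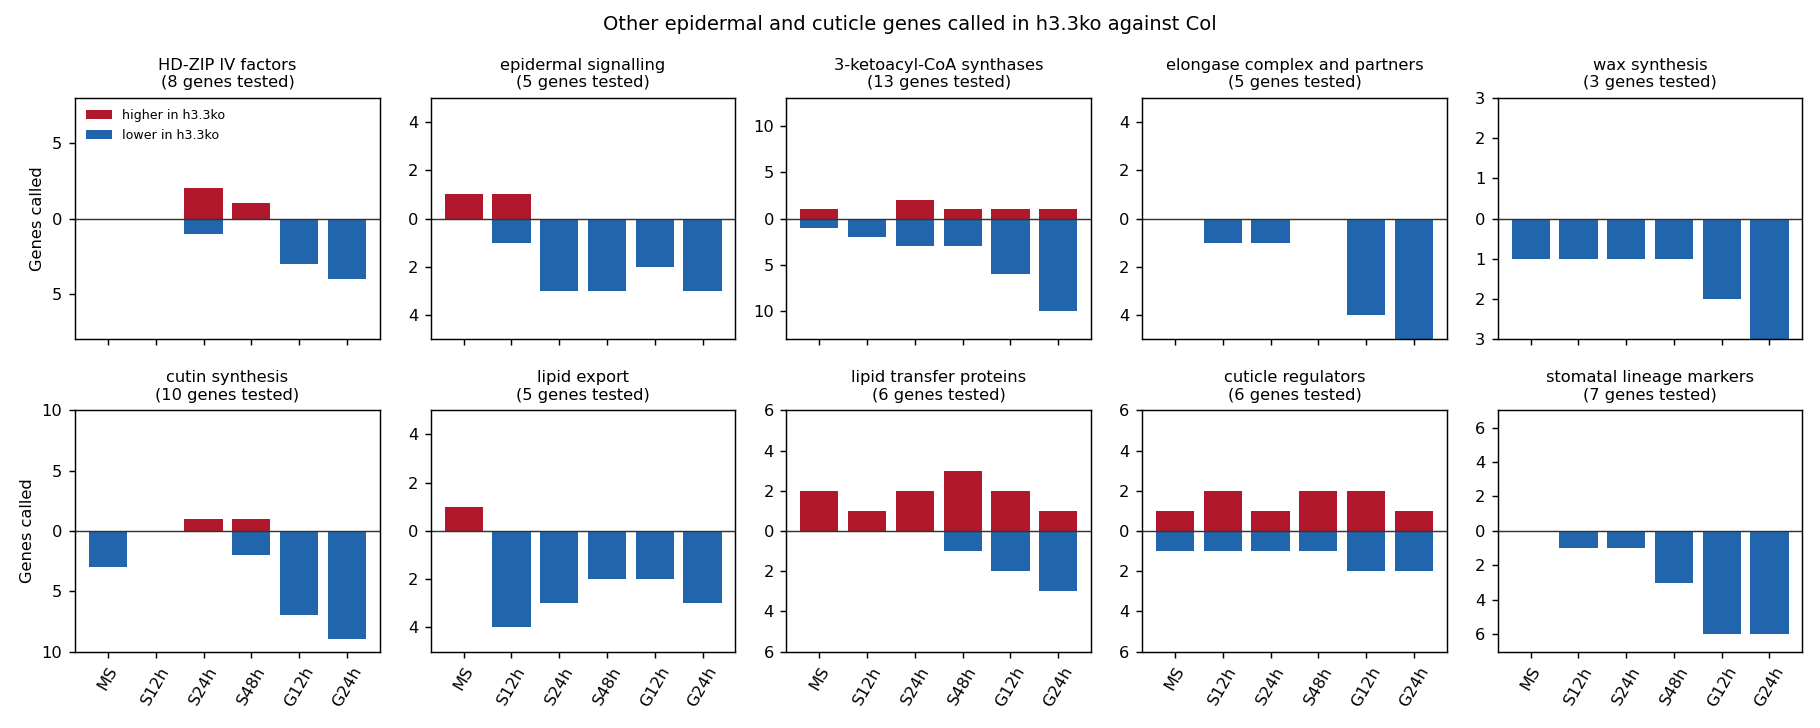
Number of genes called higher (red, upward) and lower (blue, downward) in h3.3ko at the 6 time points in 9 lists of other epidermal and cuticle genes and the stomatal lineage markers, each axis scaled to the genes tested in that list. At G24h 10 of 13 3-ketoacyl-CoA synthases, 9 of 10 cutin genes and 5 of 5 elongase genes are lower.

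The genes whose group means ran most like those of each member were taken from all tested genes, by Pearson's r of log2(TPM + 1) over the 12 groups. LACS2 was nearest to BGAL1 (r = 0.994) and to another 3-ketoacyl-CoA synthase, KCS8 (0.991). CER1 was nearest to AIR3 (0.996), FDH to CIP4 and MPPBETA (both 0.988), LTP1 to DBE1 (0.992) and HSFB4 (0.991), and PDF1 to APX1 (0.984) and VAB3 (0.980). ATML1 was nearest to ICK3 and to AT5G46640 (both 0.974), PDF2 to TTN8 and PDF1A, a peptide deformylase that is no relative of PDF1 (both 0.986), KCS1 to GONST2 (0.975) and LTP2 to AT4G10950 (0.987). AT4G10950 was itself low, with a highest group mean of 1.2 TPM. CER6 had the least similar neighbour, AT5G35970 (0.931). These values describe 12 means from the same libraries, which all share genotype and time.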

How the data were processed

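Per the labels and the methods, the authors trimmed reads with fastp 0.20.1, mapped them to TAIR10 with HISAT2 2.1.10, counted them per gene with HTSeq 0.11.2 and deposited TPM made from those counts in R. They called genes with DESeq2 1.26.0, whose results were not used. In this unit a value depends on all other transcripts of the library, so a fall of storage transcripts raises the values of other genes. With the storage genes left out, the median over all genes from MS to S48h was 0.83 in Col and 0.807 in h3.3ko. With them it was 0.919 and 1.028. TPM times the RefSeq gene span (TAIR10.1) gave whole reads, within 0.02 read in all libraries, for 99.99% of 8708 genes with at most 100 reads. Each of the 10 loci matched RefSeq, and no other annotated gene overlapped them.

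Genes with at least 1 TPM in at least 3 of 36 libraries (19052) entered a limma 3.58.1 model (R 4.3.3) of log2(TPM + 1) whose prior variance followed mean expression, and p-values were adjusted over all of them by Benjamini-Hochberg; all 10 members passed the filter. Replicates are called independent biological replicates in the methods. Same-numbered Col and h3.3ko libraries deviated together at S12h (r = 0.249, 0.285 and 0.187). At the other times r ran from -0.17 (number 1 at G12h) to 0.186 (number 3 at MS). Libraries with different numbers were not correlated, so whether the numbers pair libraries cannot be told, and a replicate block was run as an alternative. Local alignments used Biopython 1.88. The L1 box search is given for part of the members, and the rest is not reported here.

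The members and the gene lists were chosen with earlier results of these data known. Named beyond the members are, per list, up to 3 genes in each direction called at 3 or more times and never the other way, with the largest mean fold change. The 2 similar genes per member, and the H3.3 genes, are part of the rule. KCS12, KCS19 and TT2 were named after their values were seen. Alternatives were a pseudocount of 0.1, no filter, a mean of at least 5 TPM, median-of-ratios and quantile scaling, storage genes left out, voom on recovered reads, only the groups compared, a replicate block and each library left out.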

Additional observations from a re-analysis of the deposited data

Results flagged for a closer look

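The change over time differed between the genotypes, by the test of that difference in the limma fit, for 5 of the 10 genes in each interval. Among all genes, 36.4% were called so from MS to S48h and 39.4% from S48h to G24h. From MS to S48h the change in h3.3ko minus that in Col was -1.42 for LTP1, -2.20 for CER6, -2.06 for FDH and -2.81 for LACS2 on the log2 scale, and 2.04 for KCS1. From S48h to G24h it was -5.94 for PDF1, -1.30 for LTP1, -4.78 for KCS1, -6.62 for CER1 and -3.28 for CER6. Both intervals share the S48h libraries. The value for LTP1 in the later interval was -1.0 and -0.99, not called, with median-of-ratios scaling and voom, and that for KCS1 in the earlier one was -0.02 with voom.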

How the results depend on the processing

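Over the 9 settings other than leaving out a library, 1090 values of the 10 genes kept direction and side of the threshold. A further 34 passed it, 14 fell below it, 5 that were called changed sign and 14 changed sign with no call on either side. The 5 were all in comparisons over time: ATML1 from MS to S48h in h3.3ko was -0.01 with quantile normalization, CER6 in the same comparison was -0.09 with median-of-ratios scaling, -0.08 with quantile normalization and -0.11 with voom, and the KCS1 interaction from MS to S48h was -0.02 with voom. The number of members called from S48h to G24h in h3.3ko was 2 with median-of-ratios scaling, against 5. Fold changes could not move with no filter, the filter at a mean of 5 TPM, only the groups compared or the replicate block. These settings leave the group means as they are, and each group holds every replicate number. Only the adjusted p could change a call there. All their values of the members tested (130, 117, 130 and 130) kept their call and are among the 1090. Leaving out each library in turn, 12 calls were lost and 4 gained among the 10 genes, in LTP1, PDF1, KCS1, LACS2 and ATML1. Values that rest on a few reads per library, such as CER1 at S24h in h3.3ko and KCS1 in dry Col seeds, are limited by depth.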
